A study of Mus musculus with 4 samples.

Results

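The genes described here encode the extracellular matrix and the enzymes that build and remodel it. They were measured in C2C12 cells, an established line of mouse myoblasts (the precursor cells of muscle fibres). Clones became members by name alone, where a deposited gene symbol began with Col followed by a number and a, with Lama, Lamb or Lamc, or with Fbln, Lox, Timp, Mmp, Adam or Plod. Fn1, Sparc, Dcn, Bgn, Lum, Nid1, Nid2, Tnc, Spp1, Serpinh1, Vim and Hspg2 were added by full name. Other names of the rule, such as the fibrillins and Postn, were not analysed here. Each gene was read from its brightest clone, judged by the mean z-score of the 4 arrays. This gave 53 genes, carried by 79 clones, among 14059 features of the series, of which 6726 had a gene symbol.

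Proliferating cells grown in serum-containing medium were transfected with an siRNA that targets HuR (2 arrays) or with a control siRNA (2 arrays), and the sample labels give no other treatment and no time. The deposited column names of all 4 arrays also carry the number 48, whose meaning is not stated. HuR, the product of Elavl1, is an RNA-binding protein with a preference for AU-rich stretches in messenger RNAs. Total RNA was copied into 33P-labelled cDNA and hybridised to arrays of spotted cDNA clones, 1 sample per array. Whether replicate arrays hold RNA of different cultures is not stated, so the p-values reflect array-to-array spread alone, and that spread may be technical.

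The deposited values are z-scores, in which 1 unit is 1 SD of all spots in an array section. A z-score orders arrays for a given clone. It does not order genes, since the signal of a spot also depends on the length and purity of its clone, and no fold change can be taken from it. No detection call was used, and the 52 spots described as empty had mean z-scores from -3.345 to 2.145, so no member is called present or absent.

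The brighter of 2 Elavl1 clones, the check of the targeted gene, was at -0.2 and -0.21 on the arrays labelled HuR siRNA and at -0.12 and -0.2 on the control arrays, a difference of -0.045 (SE 0.047, limma adjusted p = 0.991). On this clone the target was therefore not measurably lower, and the values of the other clone are not given here. Groups are called by their labels below. Of 12 myoblast markers only Cdh2, the neural cadherin gene, was measured, at 2.39 to 2.43 on the 4 arrays, so Des, Myod1, Myf5 and Pax7 were not analysed here. All 5 epithelial markers were measured, with mean z-scores from -0.805 for Krt19 to 2.277 for Krt8, and 3 of 11 macrophage, blood and endothelial markers, with means from -1.292 to -0.065. Of 9 fibroblast markers 4 were measured, with means from -0.715 for Pdgfra to 1.918 for Cd34. None of these 12 markers (epithelial, macrophage, blood and endothelial, and fibroblast) passed the test between siRNAs. Adipocyte markers gave 1 measured gene of 6, Lpl, with a mean of 1.545. Osteoblast and chondrocyte markers gave 2 of 7, with means of 0.785 for Runx2 and -0.262 for Alpl. These did not pass either.

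The extracellular matrix is a secreted network. Fibrillar collagens give it tensile strength, and a sheet called the basement membrane, built from laminins, type IV collagen, nidogens and perlecan, wraps each muscle fibre. Chaperones and hydroxylases prepare collagen chains in the endoplasmic reticulum, lysyl oxidases crosslink them outside the cell, and metalloproteinases of the Mmp, Adam and Adamts families cut matrix and membrane proteins under the control of tissue inhibitors (Timp genes). Myoblasts secrete much of this network themselves and attach to it through integrins.

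No matrix gene differed between the siRNAs past the threshold. Of the 53 members, 0 reached an adjusted p under 0.05 with limma, as did 0 of all 14059 features (0%), and the members' adjusted p-values ran from 0.986 to 1. At an unadjusted p under 0.05 stood 3 members (5.66%), Col5a1, Col5a3 and Timp3, against 528 features (3.76%). By chance alone 703 features would be expected at this level, more than the 528 found. All 3 members had higher z-scores with the siRNA labelled HuR, a direction shared by 199 features (1.42%). Among the 329 features (2.34%) that lay lower were 0 members. The mean z-scores of Col5a1 (-0.292) and Timp3 (-0.478) were below the median of all features (-0.11). When only the brighter 50% of features were tested, 33 members remained, and 1 of them had an unadjusted p under 0.05. With 2 arrays against 2, an exact permutation test of any gene cannot go below 0.333.

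The members were divided evenly by direction. Their difference was above 0 for 26 genes and below 0 for 27, against 49.7% and 46.9% of all features, and the median difference was -0.005 z units against 0 over all features. The arrays of the siRNAs did not overlap for 8 members with higher and 8 with lower z-scores under HuR siRNA (30.2% in all). Over all features 13.6% were parted this way upwards and 13.7% downwards, 27.2% together, so the members' share lay near the background. In the array section that carried 14 of the members their median was -0.032, against 0.005 over all features of that section. In the section with the other 39 it was 0.01, against 0.

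**Figure D1:**
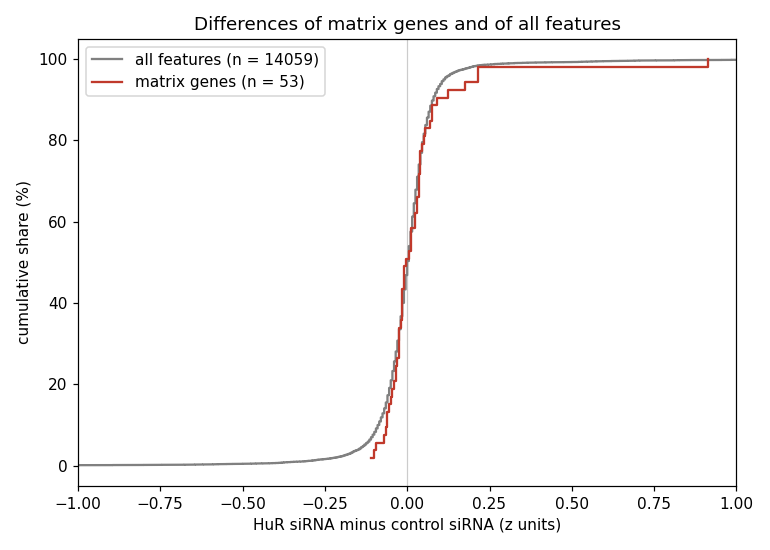
Cumulative share (%) of genes against the difference HuR siRNA minus control siRNA (z units), for the 53 matrix genes (red) and all 14059 features (grey). The curves run close together around a median of -0.005 and 0, the matrix gene farthest to the right is Adamts1 at 0.915, and 37 features lie beyond the plotted range of 1 z unit in either direction.

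Most of these differences had narrow intervals on the z scale, which reflect array-to-array spread and no known spread between cultures. The limma model also draws the spread of each gene towards a value shared by all features. Dcn, with SDs of 0.007 and 0 in the groups, thus had an SE of 0.038. A member's difference had a median SE of 0.049 z units, and its 95% interval reached a median of 0.133 to each side. For 43 members (81.1%) the interval lay wholly within 0.25 z units on either side of 0, as it did for 75.8% of all features. The interval of the targeted gene Elavl1, on the clone that was read (-0.172 to 0.082), lay within this bound too. The bound has no known size as a fold change, so it does not show that a gene was unchanged. The 10 members with a wider or shifted interval were Adamts1, Col5a1, Col5a2, Lama1, Lama5, Mmp7, Mmp11, Plod1, Spp1 and Timp3.

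**Figure D2:**
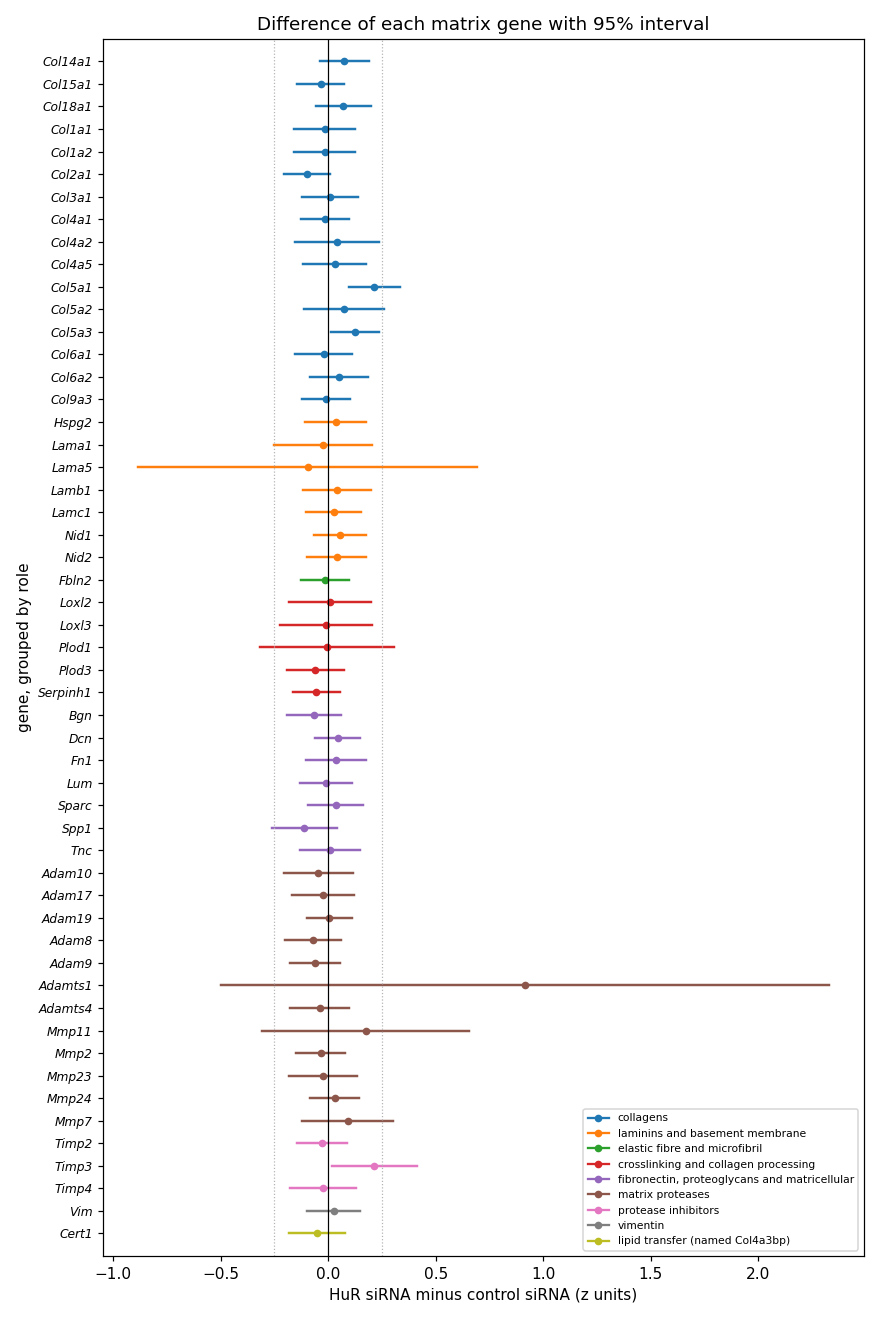
Difference of each matrix gene between HuR siRNA and control siRNA (z units; points) with its 95% interval (lines), coloured by role; dotted lines mark 0.25 z units. Of the 53 intervals 50 include 0, those of Col5a1, Col5a3 and Timp3 do not, and the widest are those of Adamts1 and Lama5.

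Among the fibrillar collagens, type I and type III showed no measurable difference on the clones that were read. Col1a1 and Col1a2 encode the chains of type I collagen, the main fibre of most connective tissue. Col1a1 was at -0.36 and -0.29 with HuR siRNA and at -0.35 and -0.27 with control siRNA, and Col1a2 was at 1 and 1.08 against 1.02 and 1.09. The groups overlapped for both genes on these clones, each with a difference of -0.015 (SE 0.053, 95% interval -0.157 to 0.127). On the other Col1a2 clone they did not overlap, and it differed by -0.115 (SE 0.053). Col3a1, whose type III fibres accompany type I in soft tissue, was at 2.1 and 2.05 against 2.1 and 2.03, a difference of 0.01 (SE 0.048). A dimmer Col3a1 clone was at -0.67 and -0.71 against -0.64 and -0.65, without overlap, while the remaining Col3a1 clones overlapped.

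The type V chains lay higher with HuR siRNA on the clones that were read, without passing the threshold. Type V collagen is a minor fibrillar collagen that helps start type I fibres. Col5a1 was at -0.21 and -0.16 with HuR siRNA and at -0.38 and -0.42 with control siRNA, so the groups were apart. Its difference was 0.215 (SE 0.044, 95% interval 0.096 to 0.334, limma unadjusted p = 0.00673, adjusted p = 0.986). Col5a3 was at 0.7 and 0.73 against 0.61 and 0.57, also without overlap, a difference of 0.125 (SE 0.042, limma unadjusted p = 0.0368). It was 0.045 (SE 0.043) with source plate medians removed. Col5a2 was at 1.92 and 2.01 against 1.82 and 1.96, where the groups overlapped, a difference of 0.075 (SE 0.068). The other Col5a1 clone moved the opposite way: it was at -2.72 and -2.64 with HuR siRNA and at -2.48 and -2.38 with control siRNA, a difference of -0.25 (SE 0.059, limma unadjusted p = 0.0109 in the fit over all clones), and with the clones averaged Col5a1 differed by -0.018.

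Of the collagens as a group, 9 of 16 members lay higher and 7 lower, with a median difference of 0.02, and 0 passed. Col2a1, the fibrillar collagen of cartilage, had the smallest unadjusted p of any member that lay lower. It was at -0.49 and -0.48 with HuR siRNA and at -0.37 and -0.4 with control siRNA, a difference of -0.1 (SE 0.04, 95% interval -0.207 to 0.007, limma unadjusted p = 0.061), and of -0.062 with grid medians removed. Col14a1, a collagen that binds to fibre surfaces, was at -0.07 and -0.04 against -0.15 and -0.11, a difference of 0.075 (SE 0.042), or 0.025 with grid medians removed. Its arrays did not overlap either.

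The collagens XV and XVIII, proteoglycan-type collagens of basement membrane zones, pointed in opposite directions. Col15a1 was at 1.75 and 1.76 against 1.81 and 1.77. Col18a1 was at 1.68 and 1.66 against 1.56 and 1.64, and its other clone also lay higher, at 0.57 and 0.51 against 0.49 and 0.4. For both genes the groups were apart by less than 0.03 z units at their nearest values.

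Type VI collagen, a beaded filament around muscle fibres, was measured through 2 of its chains. Col6a1 was at 0.24 and 0.23 with HuR siRNA and at 0.3 and 0.21 with control siRNA. Col6a2 was at -0.18 and -0.09 against -0.19 and -0.18. The groups overlapped for Col6a1 and for Col6a2. Col9a3, a chain of a cartilage collagen, was at -0.2 and -0.25 against -0.22 and -0.21, with overlap.

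Type IV collagen is the network of basement membranes, and its chain genes Col4a1 and Col4a2 lie head to head in the genome. The promoter windows that RefSeq gives for these neighbours on GRCm38.p6 (250 bases before to 50 after each annotated start) are shown because they share 78 bases, printed in capitals, on opposite strands. The Col4a1 window is at chr8:11312777-11313076 on the minus strand and the Col4a2 window at chr8:11312555-11312854 on the plus strand.
Col4a1: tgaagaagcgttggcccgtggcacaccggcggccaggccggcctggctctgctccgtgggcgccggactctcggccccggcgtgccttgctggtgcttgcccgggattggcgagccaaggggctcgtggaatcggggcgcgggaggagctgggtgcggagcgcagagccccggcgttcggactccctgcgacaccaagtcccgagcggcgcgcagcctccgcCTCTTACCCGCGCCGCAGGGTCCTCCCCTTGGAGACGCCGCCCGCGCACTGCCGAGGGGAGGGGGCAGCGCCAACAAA
Col4a2: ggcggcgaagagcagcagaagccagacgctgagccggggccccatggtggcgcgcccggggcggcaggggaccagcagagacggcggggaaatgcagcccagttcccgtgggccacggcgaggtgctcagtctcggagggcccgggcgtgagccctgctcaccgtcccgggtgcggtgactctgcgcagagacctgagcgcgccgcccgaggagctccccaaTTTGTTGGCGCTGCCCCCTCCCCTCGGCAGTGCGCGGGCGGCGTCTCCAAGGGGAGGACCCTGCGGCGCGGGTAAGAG

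Neither gene of this divergent pair differed measurably. Col4a1 was at 1.31 and 1.28 with HuR siRNA and at 1.33 and 1.29 with control siRNA, and its other clone at 1.12 and 0.99 against 1.02 and 1.2. Col4a2 was at -0.05 and -0.07 against -0.19 and -0.01. The groups overlapped on all 3 clones. The difference was -0.015 (SE 0.042) for Col4a1 and 0.04 (SE 0.073) for Col4a2. Col4a5, a chain of the same family encoded elsewhere, was at -0.73 and -0.62 against -0.71 and -0.7.

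Promoter letters were searched on both strands for a CCAAT box (CCAAT), a GC box (GGGCGG) and a TATA box (TATAAA), in the 37 members with a RefSeq window. The Col4a1 window held 1 CCAAT box and 1 GC box and the Col4a2 window 1 CCAAT box and 3 GC boxes, of which 1 lies in the shared bases, and both had 0 TATA boxes. Of the 37 members 28 (75.7%) had a GC box, against 49.2% of 17492 protein-coding genes and 38.2% of all 27025 genes with a window. A CCAAT box was in 43.2% of members and 42.3% of coding genes, and a TATA box in 18.9% and 14.8%. The comparison genes were not limited to genes with a clone on the array, as the members are, and the share among array genes was not computed. The contrast in GC boxes is therefore not a trait shown for matrix genes. These are matches of letters and say nothing of binding.

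Among the laminins and other basement membrane genes 5 of 7 lay higher and 2 lower. Their median difference was 0.035, and 0 passed. Lama1, Lamb1 and Lamc1 encode the chains of the first laminin described. Lama1 was at -0.23 and -0.14 with HuR siRNA and at -0.26 and -0.06 with control siRNA, Lamb1 (Lamb1-1 in the deposited table) at 0.36 and 0.28 against 0.33 and 0.23, and Lamc1 at 0.83 and 0.8 against 0.83 and 0.75. On the clones that were read, the groups overlapped for all 3 chains. Another Lamb1 clone was at -0.32 and -0.36 against -0.61 and -0.43, without overlap, a difference of 0.18 (SE 0.074). The remaining Lamb1 clone within the rule differed by -0.01 (SE 0.769).

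Lama5 encodes the alpha chain found in most adult basement membranes, and the clone read for it followed the replicate number rather than the siRNA. This clone was at 0.6 and -0.12 with HuR siRNA and at 0.56 and 0.11 with control siRNA, so that both arrays numbered 1 lay above both arrays numbered 2. Its interval for the siRNA difference (-0.884 to 0.694) was accordingly wide. A brighter Lama5 clone outside the rule did not follow the number, at 2.49 and 2.44 against 2.47 and 2.49. A Lamb1 clone that was not read for the gene also followed the number, in the opposite direction. It was at -3.03 and -1.44 with HuR siRNA and at -3.03 and -1.42 with control siRNA. Its values on the arrays numbered 2 were the most frequent value of the array section. Over the 53 members, 31 differed more between the numbers than between the siRNAs, against 53.6% of all features. What a number stands for is not stated. With the number as a block in the limma fit, 0 members passed (smallest adjusted p = 0.673).

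The linkers of the basement membrane were also without a measurable difference. Nid1, which bridges laminin and type IV collagen, was at 0.49 and 0.43 with HuR siRNA and at 0.42 and 0.39 with control siRNA, apart by 0.01 at the nearest values. Nid2, its relative, was at 0.13 and 0.23 against 0.14 and 0.14, and Hspg2, the gene of the heparan sulfate proteoglycan perlecan, at 1.5 and 1.57 against 1.46 and 1.54, both with overlap. Fbln2, which links fibronectin and elastic fibre proteins, was at 0.38 and 0.33 against 0.37 and 0.37.

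**Figure D3:**
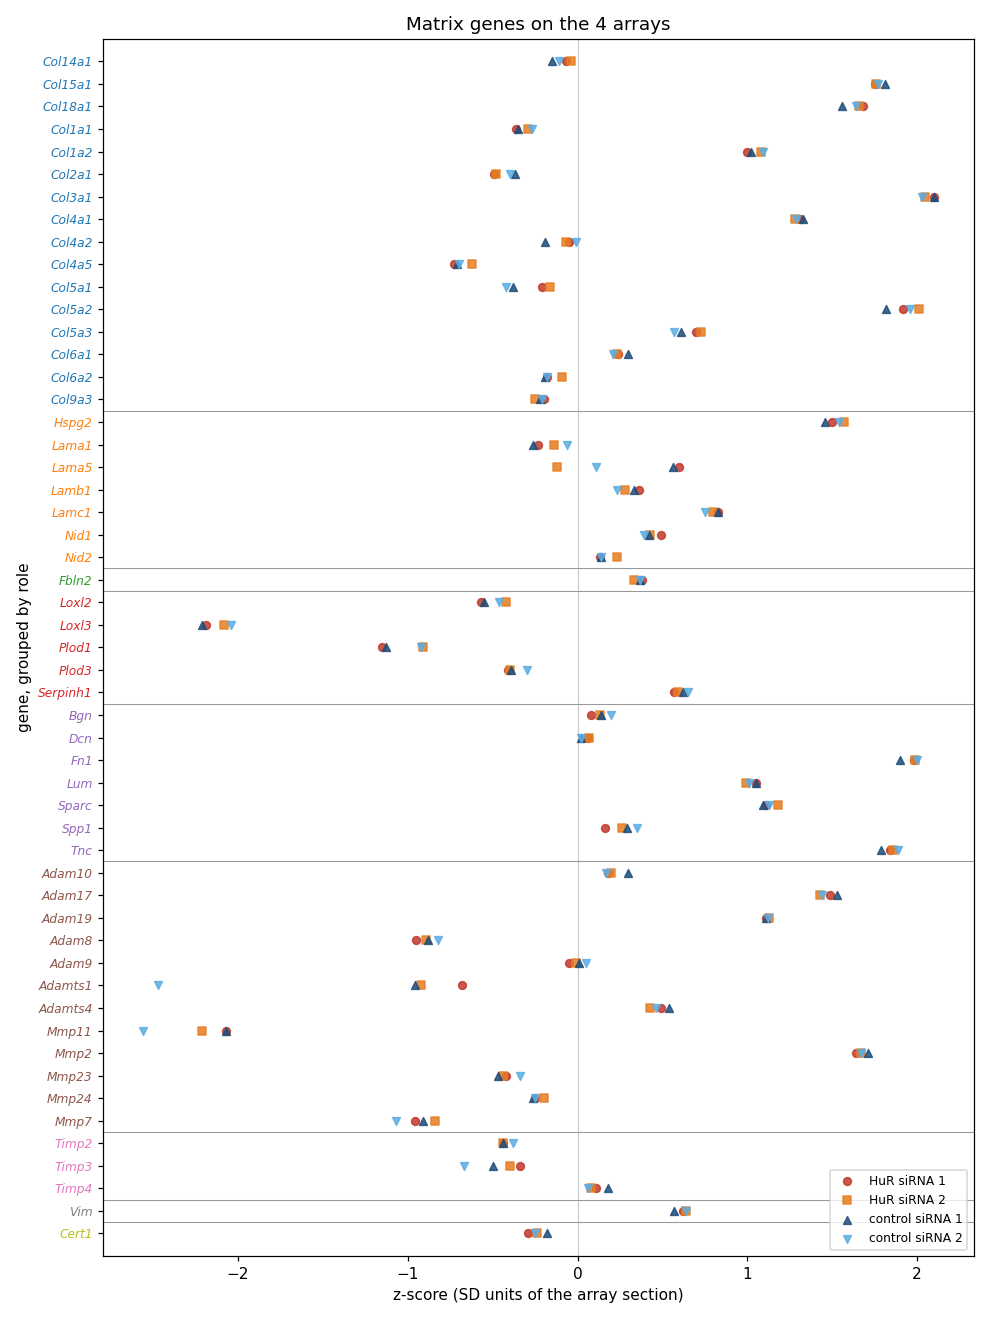
Z-scores (SD units of the array section) of the 53 matrix genes on each of the 4 arrays, grouped by role, with circles and squares for HuR siRNA and triangles for control siRNA. For most genes the 4 symbols nearly coincide (median range 0.11 z units), while Adamts1, Lama5 and Mmp11 are spread widely.

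Of the genes that process and crosslink collagen, 1 of 5 lay higher and 4 lower, with a median difference of -0.01, and 0 passed. Serpinh1, which encodes the collagen chaperone Hsp47, was at 0.57 and 0.59 with HuR siRNA and at 0.62 and 0.65 with control siRNA. Plod3, a lysyl hydroxylase that also adds sugars to collagen, was at -0.41 and -0.4 against -0.39 and -0.3. Both were parted by group, with nearest values 0.03 apart or less. Plod1, another lysyl hydroxylase, was at -1.15 and -0.91 against -1.13 and -0.92, so its arrays numbered 1 lay below those numbered 2 in both groups. Loxl2 was at -0.57 and -0.42 against -0.55 and -0.46 and Loxl3 at -2.19 and -2.08 against -2.21 and -2.04, and these relatives of lysyl oxidase also lay lower on the arrays numbered 1.

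Fibronectin, the proteoglycans and the matricellular genes (secreted proteins that signal rather than bear load) were divided, 4 of 7 being higher and 3 lower. Their median difference was 0.01, and 0 passed. Fn1, the adhesive glycoprotein on which other fibres assemble, was at 1.98 and 1.99 with HuR siRNA and at 1.9 and 2 with control siRNA. The groups overlapped, and the difference was 0.035 (SE 0.051, 95% interval -0.104 to 0.174). Sparc, a collagen-binding matricellular protein, was at 1.11 and 1.18 against 1.09 and 1.13, a difference of 0.035 (SE 0.047), with overlap. Tnc, the gene of tenascin C, was at 1.84 and 1.86 against 1.79 and 1.89, again with overlap.

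Spp1 and Bgn lay lower on both arrays labelled HuR siRNA, with nearest values 0.03 and 0.01 apart. Spp1, which encodes osteopontin, was at 0.16 and 0.26 with HuR siRNA and at 0.29 and 0.35 with control siRNA, a difference of -0.11 (SE 0.055, 95% interval -0.259 to 0.039, limma adjusted p = 0.991), or -0.06 without HuR siRNA replicate 1. Bgn, the gene of the small proteoglycan biglycan, was at 0.08 and 0.13 against 0.14 and 0.2, a difference of -0.065 (SE 0.047). It was -0.04 without HuR siRNA replicate 1 and -0.035 without control siRNA replicate 2. Dcn, the related decorin, was at 0.06 and 0.07 against 0.02 and 0.02, in the opposite direction. Lum, the gene of lumican of the same family, was at 1.05 and 0.99 against 1.05 and 1.01, with overlap.

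Of the 12 matrix proteases 5 lay higher and 7 lower. Their median difference was -0.025, and 0 passed. Mmp2, which encodes gelatinase A, was at 1.64 and 1.67 with HuR siRNA and at 1.71 and 1.67 with control siRNA, a difference of -0.035 (SE 0.042, 95% interval -0.148 to 0.078). The groups met at 1.67. Mmp7 was at -0.96 and -0.84 against -0.91 and -1.07, Mmp23 at -0.42 and -0.44 against -0.47 and -0.34, and Mmp24 at -0.25 and -0.2 against -0.26 and -0.25. These are matrix metalloproteinases too, Mmp24 being bound to the membrane, and their groups overlapped or met.

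Adamts1 had the largest difference of any member, and 1 array made most of it. This secreted protease cuts the large proteoglycans aggrecan and versican. It was at -0.68 and -0.92 with HuR siRNA and at -0.96 and -2.47 with control siRNA, a difference of 0.915 (SE 0.523, 95% interval -0.498 to 2.328). Without control siRNA replicate 2 the difference was 0.16, without control siRNA replicate 1 it was 1.67, and the first value was the most frequent value of its array section. Mmp11 shared that low array: it was at -2.07 and -2.21 against -2.07 and -2.56. Adamts4, the other Adamts gene measured, was at 0.49 and 0.43 against 0.54 and 0.46, with overlap.

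The Adam genes encode membrane proteases that release the outer parts of surface proteins. Adam8 was at -0.95 and -0.89 with HuR siRNA and at -0.88 and -0.82 with control siRNA, a difference of -0.07 (SE 0.048). It was -0.04 without HuR siRNA replicate 1 or without control siRNA replicate 2, and 0.005 with grid medians removed. Adam9 was at -0.05 and -0.01 against 0.01 and 0.05, a difference of -0.06 (SE 0.043). Both were parted by group, with nearest values 0.01 and 0.02 apart, and a second Adam9 clone differed by 0.04 the other way. With its clones averaged Adam9 differed by -0.01, and with grid medians removed by -0.1. Adam10 was at 0.18 and 0.2 against 0.3 and 0.17, and Adam17, the enzyme that releases tumour necrosis factor, at 1.49 and 1.43 against 1.53 and 1.44, both with overlap.

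The clone read for Adam19 rests on an uncertain name. It was at 1.11 and 1.13 with HuR siRNA and at 1.11 and 1.12 with control siRNA, but the deposited annotation also names it as the clone of another gene, now Cmpk1. The Adam19 clone with a single name was at -1.42 and -1.19 against -1.21 and -1, a difference of -0.2 (SE 0.113). A clone of Adam17 had the same kind of double name and was not the one read.

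Of the 3 measured metalloproteinase inhibitors, Timp3 lay higher and Timp2 and Timp4 lower, and 0 passed. Timp3, which stays bound to the matrix and also inhibits Adam17, was at -0.34 and -0.4 with HuR siRNA and at -0.5 and -0.67 with control siRNA. The groups did not overlap, and the difference was 0.215 (SE 0.072, 95% interval 0.019 to 0.411, limma unadjusted p = 0.0376, adjusted p = 0.991). It was 0.13 without control siRNA replicate 2. The other Timp3 clones differed by 0.07 (SE 0.131) and -0.025 (SE 0.058), and with the clones averaged Timp3 differed by 0.087 (SE 0.048). Timp2 was at -0.44 and -0.44 against -0.44 and -0.38, a difference of -0.03 (SE 0.043), and Timp4 at 0.11 and 0.08 against 0.18 and 0.06. Timp1 was not analysed here.

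Vim and Col4a3bp fell under the rule by name without encoding matrix proteins. Vim encodes vimentin, the intermediate filament of mesenchymal cells and myoblasts, and was at 0.62 and 0.64 with HuR siRNA and at 0.57 and 0.64 with control siRNA, a difference of 0.025 (SE 0.046). Col4a3bp, now named Cert1, encodes a ceramide transfer protein and was at -0.29 and -0.24 against -0.18 and -0.25. The groups overlapped for both.

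Clones of the same gene differed from each other far more than the arrays did. Of the 53 genes 15 had more than 1 clone, 41 clones in all, and the range between the mean z-scores of a gene's clones had a median of 1.45 z units (0.205 for Adam9 to 3.557 for Adam17). By comparison, the range of a member over its 4 arrays had a median of 0.11. The 4 clones of Col3a1 had means of 2.07, 1.705, -0.212 and -0.667, and those of Sparc 1.128, 0.855, 0.308 and -0.322. The Col3a1 clones differed between siRNAs by -0.045 to 0.05 and the Sparc clones by -0.055 to 0.125. A gene's mean z-score thus depended on the clone chosen. The Col3a1 clones all lay in the same array section, while those of Sparc were divided between the sections, each with its own z-scale. The part of the section in these ranges was not tested.

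In direction, the clones of a gene matched for 5 of the 15 genes (Col18a1, Col1a2, Col4a1, Dcn and Nid1) and were split for 10. The second clone of Col1a2 was at -0.05 and -0.02 with HuR siRNA and at 0.03 and 0.13 with control siRNA, a difference of -0.115 (SE 0.053) where the clone that was read gave -0.015. A Timp4 clone was at 0.08 and 0.14 against 0.02 and 0.01, higher by 0.095 (SE 0.044), while the clone that was read lay lower by 0.025. Over all 79 clones 39 lay higher and 40 lower, and 0 passed in the fit over 16825 clones.

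**Figure D4:**
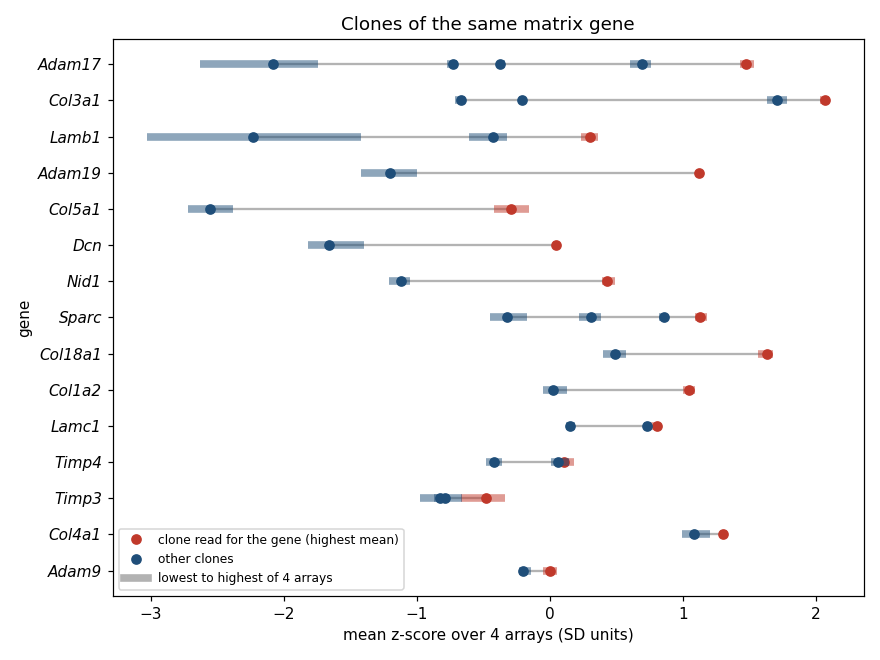
Mean z-score over the 4 arrays (SD units) of each clone of the 15 matrix genes with more than 1 clone; red points are the clones read for the gene, blue points the others, and thick bars run from the lowest to the highest array. The clones of Adam17 span 3.557 z units and those of Adam9 0.205, while most bars are barely wider than the points.

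Genes that act beside the members were read from lists, and none of their measured genes passed. Of 13 further genes of collagen synthesis (of 23 listed) 6 lay higher and 7 lower, with the prolidase gene Pepd at -0.135 (SE 0.042) and the prolyl hydroxylase gene P4ha2 at 0.115 (SE 0.049). Of 24 other matrix and matrix-associated genes (of 62) 11 lay higher and 11 lower. Mgp, the matrix Gla protein that inhibits calcification, was at -1.57 and -1.71 with HuR siRNA and at -1.21 and -1.31 with control siRNA, a difference of -0.38 (SE 0.07, limma unadjusted p = 0.00453, adjusted p = 0.986). Its first value was the most frequent value of the array section. Gpc3, a cell surface proteoglycan, differed by 0.12 (SE 0.054).

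Among 16 matrix receptors (of 34) 9 lay higher and 6 lower. Cd44, the hyaluronan receptor, had the smallest unadjusted p of these lists: it was at -0.91 and -0.8 with HuR siRNA and at -0.47 on both control arrays, a difference of -0.385 (SE 0.054, 95% interval -0.53 to -0.24, limma unadjusted p = 0.0015, adjusted p = 0.986). The groups were apart by 0.33 z units or more, although the adjusted p did not pass. The integrin gene Itga9 differed by -0.145 (SE 0.044), and Itgb1, the beta chain shared by most matrix-binding integrins, was at 0.72 and 0.93 against 0.78 and 0.84.

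Genes of glycosaminoglycan synthesis, listed together with the hyaluronidase genes Hyal1 and Hyal2, were 7 higher and 14 lower of 21 measured (of 34). Ugdh, which makes the sugar precursor of these chains, was at -0.21 and -0.24 against -0.06 and -0.02, a difference of -0.185 (SE 0.042), and the sulfotransferase gene Ndst1 differed by -0.38 (SE 0.137). Of 12 other proteases and inhibitors (of 25) 3 lay higher and 9 lower, with the inhibitor gene Serpine2 at 0.115 (SE 0.04) and the plasminogen activator gene Plat at -0.11 (SE 0.062). Of 19 genes of TGF-beta signalling (of 35), a pathway that drives matrix synthesis, 13 lay higher and 5 lower. The co-receptor gene Tgfbr3 was at -0.115 (SE 0.05) and the activin gene Inhba at 0.115 (SE 0.062). Inhibitors of the pathway, such as Ski, Smurf1 and Smurf2, are counted among those that lay higher, so the count gives no direction for the pathway. The median differences of these lists ran from -0.02 to 0.025, against 0 over all features.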

How the data were processed

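The authors deposited z-scores per spot, a score without a unit of its own; this was read from the values, which have mean 0 and SD 1 in each of 2 sections of 8448 spots on every array. How scans were turned into z-scores, and on which log base, is not given in the sources used here. A second deposited table held equal scores in all 67584 cells. Each column name gives the siRNA and replicate number of a sample title and the number 48, which is in no title, and the deposited table carries the name of an siRNA against NPM.

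Clones were named through deposited gene IDs, RefSeq accessions or symbols, updated with the RefSeq table of GRCm38.p6. Spots of a clone were averaged, and the clone with the highest mean was read for each gene. Groups were tested by the moderated linear model of limma 3.58.1 (R 4.3.3; two-sided and without a block), with Benjamini-Hochberg adjustment over 14059 features and a threshold of 0.05, and clones not read for a gene in the same fit over all clones. The steps were tested on simulated data. The number of arrays limits the precision. Alternatives are given at the end.

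The members and lists were chosen with earlier results of these data known. Differences were printed for Col1a1, Col1a2, Col3a1, Fn1, Sparc, Vim, Timp2, Timp3 and Mmp2 and for the 5 members per direction of smallest unadjusted p, and for the 2 such genes of each neighbouring list. Those of Col4a1, Col4a2 and Col5a2 and of other clones, and the array values of Itgb1, were added after their values were seen.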

Additional observations from a re-analysis of the deposited data

How the results depend on the processing

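No member passed the threshold under any of 13 alternatives (smallest limma adjusted p 0.673 to 0.998), and the count of all features past it was 0 except with quantile normalization within each section, where it was 1. Members at an unadjusted p under 0.05 numbered 1 to 4. With the replicate block 0 members and 0 features passed (smallest adjusted p = 0.673), while 857 features had an unadjusted p under 0.05 against 528 without it; deviations of same-numbered arrays correlated at 0.102 over features and at 0.576 over the members, across genes, which are not independent replicates, and the block lowered the SE of Col1a1 from 0.053 to 0.02 and of Adam9 from 0.043 to 0.02; 2 pairs do not show whether the numbers pair the arrays. The members' median difference ran from -0.01 to 0.02, from 0 to 0.02 when each array was left out in turn, and moved most without HuR siRNA replicate 1 (0.02). Some differences changed sign, including that of Col5a1, which was 0.215 as reported. With grid medians removed Col1a1 was at 0.02, Col3a1 at -0.02 and Adam8 at 0.005; with source plate medians removed Col3a1 was at -0.06 and Timp2 at 0.012; with quantile normalization Col3a1 was at -0.006; with all clones averaged Col5a1 was at -0.018. The cause was not tested. Leaving out each array in turn gave ranges for Col1a1 from -0.055 to 0.025, Col1a2 from -0.055 to 0.025, Col3a1 from -0.025 to 0.045, Fn1 from -0.015 to 0.085, Vim from -0.01 to 0.06, Timp3 from 0.13 to 0.3, Spp1 from -0.16 to -0.06, Bgn from -0.095 to -0.035, Adam8 from -0.1 to -0.04 and Adamts1 from 0.16 to 1.67. Of the 53 members 22 kept their sign under each such omission. A lone array of a group was assumed to vary like the other group. Leaving out clones whose identifiers disagree was chosen after seeing the data and gave 0 members past the threshold.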

Other observations

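Another 4 clones name member genes only through updated identifiers and stood outside the rule. A clone listed as D11Bwg1104e, now a synonym of Timp2, was at -2.7 and -3.04 on the arrays labelled HuR siRNA and at -1.53 and -1.42 on the control arrays, a difference of -1.395 (SE 0.128, limma unadjusted p = 0.000254, adjusted p = 0.713 in the fit over all clones). Both control values were the most frequent value of their array section, held by 105 and 118 spots. The Timp2 clone that was read differed by -0.03. The further Lama5 clone was at 2.49 and 2.44 against 2.47 and 2.49 and did not follow the replicate number as the Lama5 clone within the rule did. The further Lamb1 clone differed by 0.085 (SE 0.07) and the further Cert1 clone by 0.03 (SE 0.044).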
